A study of Arabidopsis thaliana with 6 samples.

Results

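Cytochrome P450 genes encode heme-containing monooxygenases. The 22 described here are those that the array annotation lists alone on a probe set under a symbol of the form CYP, family number, subfamily letter and gene number. All tested probe sets numbered 22746, and 13356 genes had a probe set naming them alone. The rule for members used the symbol only and no measured value, though it was chosen with earlier results of these data known. They cover 22 of the 225 genes (9.78%) that carry such a symbol in the RefSeq table of Arabidopsis thaliana. Family 71 has 18 of them, all of subfamily 71B, and families 51, 78, 79 and 84 have 1 each. P450 genes that the annotation does not name in this way, among them CYP71B15 (PAD3) of camalexin synthesis, were not analysed here.

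The study asked about AtR8, a long non-coding RNA, in defence responses. Whole seedlings of 2 genotypes were compared on Affymetrix arrays, 3 of the atr8 mutant and 3 of the wild type, both labelled as accession Wassilevskija. All seedlings were 10 days old and, in both genotypes, had spent 6 h in air-purged water as a low-oxygen stress and then 22 h in recovery on agar medium. The design text calls the 3 arrays of each genotype biological replicates. No unstressed seedlings were analysed here, and neither was the level of AtR8 itself. The nature of the atr8 allele is not given in the sources used here.

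A plant P450 sits in the membrane of the endoplasmic reticulum or the plastid, takes electrons from a reductase partner and inserts an oxygen atom into a small molecule. In Arabidopsis the superfamily serves hormone synthesis and breakdown, sterols, cutin and suberin, phenylpropanoids, and defence compounds made from amino acids. Subfamily 71B is a plant-specific branch that lies largely in tandem arrays, rows of neighbouring copies. For most of its members no substrate is known with certainty.

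Mutant replicates 2 and 3 stood apart from the other arrays in control probe sets that read the 3′ and the 5′ end of 1 transcript. The 3′ over 5′ ratio of actin was 2.13, 28.9 and 19.6 in mutant replicates 1, 2 and 3, against 2.55, 2.66 and 2.17 in wild-type replicates 1, 2 and 3. For GAPDH it was 0.996, 1.75 and 1.70 in the mutant, against 0.815, 0.794 and 0.844 in the wild type. The value on mutant replicate 1 is therefore given below for the genes and ratios whose genotypes did not overlap. That choice fixes the side of the wild-type mean on which replicate 1 lies, so only the size of its difference can be read. Of 6 listed shoot markers 2 were measured, LHCB4.1 and RCA, and their summed intensity was 24020 to 31756 in the mutant, against 49440 to 50827 in the wild type. Of 6 listed root markers 3 were measured, with a sum of 951 to 1454 in the mutant, against 1461 to 1597 in the wild type. They differed among themselves. EXPA7 was lower on all mutant arrays (140 ± 55.0 in the mutant and 256 ± 55.1 in the wild type, SD, n = 3 each), EXPA18 overlapped (413 ± 151 in the mutant and 624 ± 89.5 in the wild type), and so did PRX72 (652 ± 108 in the mutant and 646 ± 78.7 in the wild type). In whole seedlings, fewer cells of a type and less RNA per cell cannot be told apart. The part of these values in the differences below was not tested.

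Mutant and wild-type seedlings were set against each other to see which P450 transcripts differ between them after stress and recovery. In 15 of the 22 genes the arrays of the genotypes overlapped. Of all tested probe sets, 11.2% had every mutant array above the wild type and 11% had every mutant array below it. CYP71B23 stood furthest up, 4.38-fold in the mutant, and CYP71B6, an enzyme of indole metabolism, stood 2.68-fold up. CYP71B36 and CYP71B29 followed at 2.17-fold and 1.88-fold. CYP71B26 was furthest down, 1.91-fold below the wild type. By limma on log2(intensity + 16), with Benjamini-Hochberg adjustment over all probe sets, 0 of the 22 members passed an adjusted p of 0.05, where 0.919% of all tested probe sets did. Folds here and below are of intensity + 16, which understates the change of dim genes.

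At an unadjusted p under 0.05, 4 of the 22 members had higher estimates in the mutant, against 7.11% of all probe sets. A lower estimate at that p was seen in 1 of the 22, against 6.92% of all probe sets. In 5 of the 22 members all mutant arrays lay above all wild-type arrays, against 11.2% of all probe sets. These were CYP71B23, CYP71B6, CYP71B36, CYP71B29 and CYP71B21. In 2 of the 22, CYP71B26 and CYP71B5, all mutant arrays lay below all wild-type arrays, against 11% of all probe sets. A log2 difference of at least 1 upward was seen in 3 of the 22 members, against 6.43% of all probe sets. One of at least 1 downward was seen in 0 of the 22, against 6.21%.

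Across the members the estimates were spread on both sides of 0. The median log2 difference was 0.12 over the 22 members and −0.01 over all tested probe sets. Of the members 12 (54.5%) had higher estimates in the mutant, and of all probe sets 49.5%. Within family 71 this held for 10 of 18, with a median of 0.14, and the 4 members of other families had a median of −0.01.

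**Figure D1:**
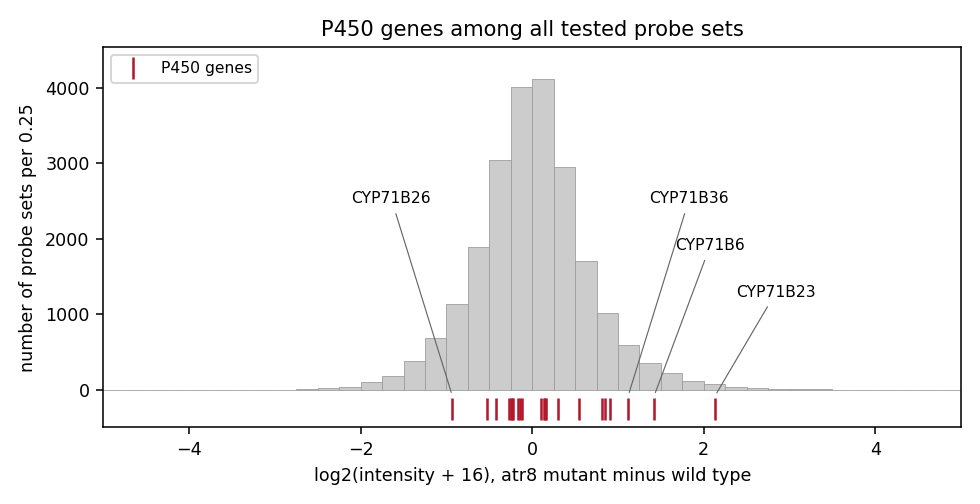
Grey bars count all 22746 tested probe sets by their difference between the atr8 mutant and the wild type in log2(intensity + 16), in steps of 0.25, and red ticks mark the 22 P450 genes. The ticks run from −0.93 (CYP71B26) to 2.13 (CYP71B23), on both sides of 0.

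CYP71B23 (AT3G26210, chromosome 3) belongs to a tandem array, and its substrate is not settled. Its intensity was 1146, 1500 and 1876 in mutant replicates 1, 2 and 3, against 225, 399 and 381 in wild-type replicates 1, 2 and 3. Every mutant array was thus above every wild-type array, and the lowest mutant value belonged to replicate 1. On that array the 3′ over 5′ ratio of actin was close to the wild type (2.13 against 2.17 to 2.66). That of GAPDH was above it (0.996 against 0.794 to 0.844). The log2 difference was 2.13 ± 0.31 (SE, n = 3 arrays per genotype, limma adjusted p = 0.0513), with a 95% interval of 2.57-fold to 7.44-fold. On mutant replicate 1 alone it stood 1.77 above the wild-type mean.

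The indole enzyme CYP71B6 (AT2G24180, chromosome 2) turns indole-3-acetonitrile, a product of indole glucosinolate and camalexin metabolism, into indole-3-carbaldehyde. It lies outside the runs of neighbouring members described below. Its intensity was 1943, 3005 and 2261 in the mutant, against 774, 894 and 962 in the wild type. The genotypes did not overlap, and the wild-type arrays lay within a range of 0.31 on the log2 scale. The log2 difference was 1.42 ± 0.24 (SE, n = 3 per genotype, limma adjusted p = 0.0728), with a 95% interval of 1.79-fold to 4.01-fold. Mutant replicate 1 stood 1.14 above the wild-type mean.

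Whether these genes passed depended on the setting. CYP71B23 passed with cyclic loess normalization (adjusted p = 0.0495), without the dimmest 30% of probe sets (0.0234), with an intensity trend and robust prior (2.02e-07) and with 64 added in place of 16 (0.0157). The same settings called upward 0.747%, 1.83%, 3.57% and 1.18% of all probe sets they tested. CYP71B6 passed under the last 3 of them, with adjusted p-values of 0.0314, 2.35e-06 and 0.0302, and under cyclic loess it had 0.0698. Leaving out any 1 array, both genes missed the threshold, with adjusted p-values of 0.0564 to 0.173 for CYP71B23 and 0.0591 to 0.204 for CYP71B6. Their log2 differences then were 1.88 to 2.31 and 1.25 to 1.56. Without mutant replicate 1 the count over all probe sets was 314. Without any other array it was 0, so no gene of any kind passed there. With 1 added in place of 16 the adjusted p-values of CYP71B23 and CYP71B6 were 0.0797 and 0.0974. With mutant replicate 1 as the only mutant array their log2 differences were 1.77 and 1.14. No other member passed under any of the 14 alternatives.

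**Figure D2:**
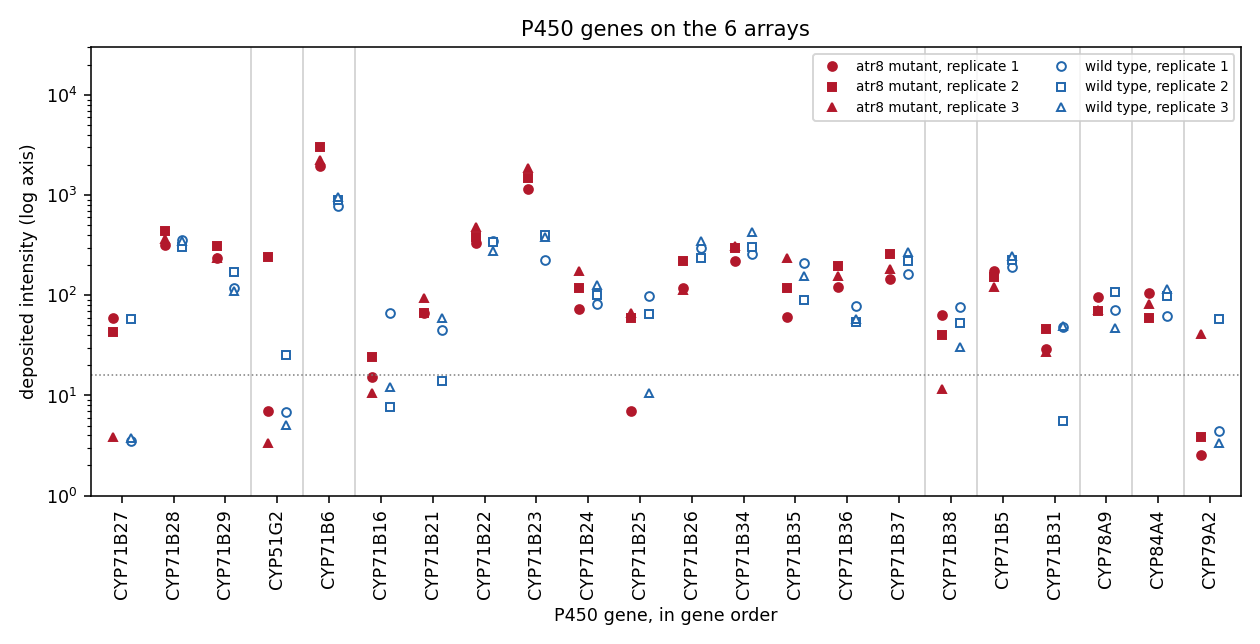
Deposited intensity (log axis) of the 22 P450 genes on each array, with the atr8 mutant in filled red symbols and the wild type in open blue symbols, replicates 1, 2 and 3 as circle, square and triangle, a dotted line at 16 and grey lines between runs of neighbouring genes. CYP71B23 and CYP71B6 show a clear gap between the genotypes, and the 8 genes with an array under the dotted line scatter widely within a genotype; heights of different genes are not comparable.

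Like CYP71B6 in the main fit, the other members with a listed role gave no call. CYP79A2 (AT5G05260), which makes phenylacetaldoxime from phenylalanine for benzylglucosinolate, read 2.55, 3.83 and 41.1 in the mutant, against 4.46, 58.6 and 3.32 in the wild type. In each genotype 1 array stood far above the other two, and the estimate of −0.16 ± 0.69 (log2, SE) had a 95% interval of 0.275-fold to 2.90-fold. CYP84A4 (AT5G04330), which acts in the synthesis of arabidopyrones from phenylpropanoids, read 107, 59.9 and 82.1 in the mutant, against 62.3, 98.9 and 115 in the wild type. These values overlapped fully, at a log2 difference of −0.12 ± 0.30.

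CYP78A9 (AT3G61880), a promoter of fruit and seed growth related to KLUH, read 97.1, 69.0 and 71.1 in the mutant, against 70.7, 108 and 46.7 in the wild type. Its mutant arrays lay inside the wild-type range, and the log2 difference was 0.11 ± 0.31, with a 95% interval of 0.641-fold to 1.81-fold. CYP71B31 (AT3G53300), which oxidizes the monoterpene alcohol linalool, read 29.1, 45.8 and 27.3 in the mutant, against 48.1, 5.56 and 49.2 in the wild type. Wild-type replicate 2 alone was low there.

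CYP51G2 (AT2G17330) is a relative of the sterol demethylase CYP51G1, and RefSeq annotates it as a transcribed pseudogene. It read 6.94, 244 and 3.34 in the mutant, against 6.91, 25.1 and 5.03 in the wild type. The log2 difference of 0.85 ± 1.03 rested on mutant replicate 2, since without that array it was −0.36. CYP71B27 (AT1G13070), the other transcribed pseudogene among the members, read 59.9, 43.0 and 3.82 in the mutant, against 3.54, 58.3 and 3.78 in the wild type. Its arrays also split into high and low values within each genotype.

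Gene order in the RefSeq table (assembly TAIR10.1) placed 16 members in 3 runs of neighbouring genes. The longest, on chromosome 3, runs from CYP71B16 to CYP71B37 and spans 20 protein-coding genes, 16 of them of subfamily 71B and 11 of them measured. In this run 5 members had higher and 6 had lower estimates in the mutant, with a median log2 difference of −0.14. Estimates went from −0.93 for CYP71B26 to 2.13 for CYP71B23, which are not direct neighbours. CYP71B36, with an estimate above 0, lies between CYP71B35 and CYP71B37, with estimates below 0. The 95% intervals of CYP71B35 and CYP71B37 held 0, so their direction is not settled.

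**Figure D3:**
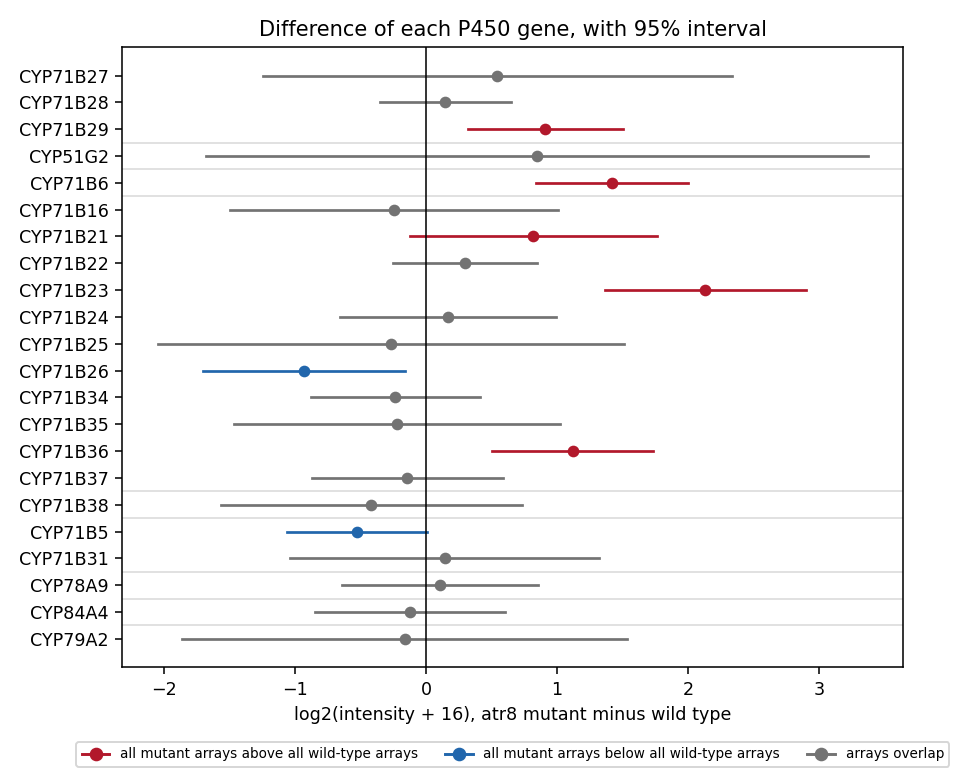
Difference between the atr8 mutant and the wild type in log2(intensity + 16) for each P450 gene in gene order, with 95% intervals from limma, coloured by whether the genotypes overlap. The intervals are not adjusted for the number of probe sets. In 7 of 22 genes the genotypes do not overlap, 5 upward and 2 downward. Of all tested probe sets, 11.2% lie apart upward and 11% downward. Grey lines separate runs of neighbouring genes.

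Next to CYP71B23, CYP71B22 (AT3G26200) read 336, 384 and 486 in the mutant, against 350, 340 and 278 in the wild type. The gene on its other side among the members, CYP71B24 (AT3G26230), read 72.9, 119 and 176 in the mutant, against 82.8, 99.8 and 127 in the wild type. Both overlapped between the genotypes, with log2 differences of 0.30 ± 0.22 and 0.16 ± 0.34. The 95% interval of CYP71B22 reached from 0.839-fold to 1.80-fold and that of CYP71B24 from 0.633-fold to 1.98-fold.

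Further along the run, CYP71B36 (AT3G26320) read 121, 197 and 155 in the mutant, against 78.7, 53.9 and 58.2 in the wild type. Every mutant array was above every wild-type array, and the log2 difference was 1.12 ± 0.25 (SE, n = 3 per genotype, limma adjusted p = 0.140). Its neighbour CYP71B35 (AT3G26310) read 61.2, 118 and 237 in the mutant, against 209, 90.3 and 157 in the wild type. CYP71B37 (AT3G26330), on the other side, read 146, 261 and 183 in the mutant, against 163, 218 and 270 in the wild type. Both overlapped, at log2 differences of −0.22 ± 0.51 and −0.14 ± 0.30.

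CYP71B26 (AT3G26290) read 118, 222 and 112 in the mutant, against 294, 235 and 345 in the wild type. The gap between the highest mutant and the lowest wild-type array was small, and the log2 difference was −0.93 ± 0.31 (SE, n = 3 per genotype, limma adjusted p = 0.281). CYP71B34 (AT3G26300) directly beside it read 219, 297 and 313 in the mutant, against 261, 305 and 425 in the wild type. It had an estimate of −0.23 ± 0.26 and its arrays overlapped.

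The other 3 members of the run were dim. CYP71B21 (AT3G26190) read 67.1, 66.2 and 93.1 in the mutant, against 44.9, 13.9 and 59.0 in the wild type. Its genotypes did not overlap, with a log2 difference of 0.82 ± 0.38 (limma adjusted p = 0.408 over n = 3 arrays per genotype). CYP71B16 (AT3G26150) read 15.2, 24.0 and 10.5 in the mutant, against 66.7, 7.62 and 12.2 in the wild type, and CYP71B25 (AT3G26270) read 6.97, 59.4 and 66.1 in the mutant, against 97.6, 65.6 and 10.7 in the wild type. In both genes arrays of either genotype fell under 16.

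A second run, on chromosome 1, holds CYP71B27, CYP71B28 and CYP71B29 among 4 neighbouring subfamily 71B genes. CYP71B29 (AT1G13100) read 237, 311 and 237 in the mutant, against 119, 170 and 110 in the wild type. Its arrays did not overlap, at a log2 difference of 0.91 ± 0.24 (SE, n = 3 per genotype, limma adjusted p = 0.192). CYP71B28 (AT1G13090), directly beside it, read 319, 434 and 367 in the mutant, against 355, 303 and 345 in the wild type. That difference was 0.15 ± 0.20, with a 95% interval of 0.782-fold to 1.57-fold.

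The third run pairs CYP71B5 with CYP71B31 on chromosome 3. CYP71B5 (AT3G53280) read 174, 151 and 122 in the mutant, against 190, 224 and 249 in the wild type. All mutant arrays lay below the wild type, with a log2 difference of −0.53 ± 0.22 (SE, n = 3 per genotype, limma adjusted p = 0.359). CYP71B38 (AT3G44250), which stands alone on the same chromosome, read 63.9, 40.3 and 11.6 in the mutant, against 76.6, 52.7 and 30.4 in the wild type, and its arrays overlapped.

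The log2 ratio of each of 13 pairs of adjacent members was taken within every array and compared between the genotypes by an exact two-sided permutation test. With 3 arrays against 3 the smallest p this test allows is 0.1. The ratio of CYP71B23 to CYP71B22 was 1.72, 1.92 and 1.91 in the mutant arrays, against −0.60, 0.22 and 0.43 in the wild-type arrays. Its mean was 1.85 ± 0.11 in the mutant and 0.02 ± 0.55 in the wild type (SD, n = 3 each), a difference of 1.83 (exact permutation p = 0.1, or 0.217 adjusted over the 13 pairs). This restates the difference of CYP71B23 itself, set against a neighbour on the same array.

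On the other side, the ratio of CYP71B24 to CYP71B23 averaged −3.50 ± 0.20 in the mutant and −1.53 ± 0.28 in the wild type (SD, n = 3 each), a difference of −1.96. It was −3.71 on mutant replicate 1. CYP71B36 over CYP71B35 differed by 1.34 and stood at 0.83 on mutant replicate 1, against a wild-type mean of −1.02. CYP71B37 over CYP71B36 differed by −1.26 and stood at 0.23 on that array, against a wild-type mean of 1.54. CYP71B29 over CYP71B28 differed by 0.76 and stood at −0.41 on it, against a wild-type mean of −1.25. CYP71B34 over CYP71B26 differed by 0.70 and stood at 0.81 on it, against a wild-type mean of 0.16. Each of these pairs holds a gene that did not overlap by itself, and the pairs were compared after the values were seen. In all 6 of these pairs the genotypes did not overlap and the exact permutation p was 0.1, and in the other 7 pairs the genotypes overlapped. The side of the wild-type mean on which mutant replicate 1 lies was thus fixed by the choice of these 6. After adjustment over the pairs none of the 13 passed, which this number of arrays does not allow.

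**Figure D4:**
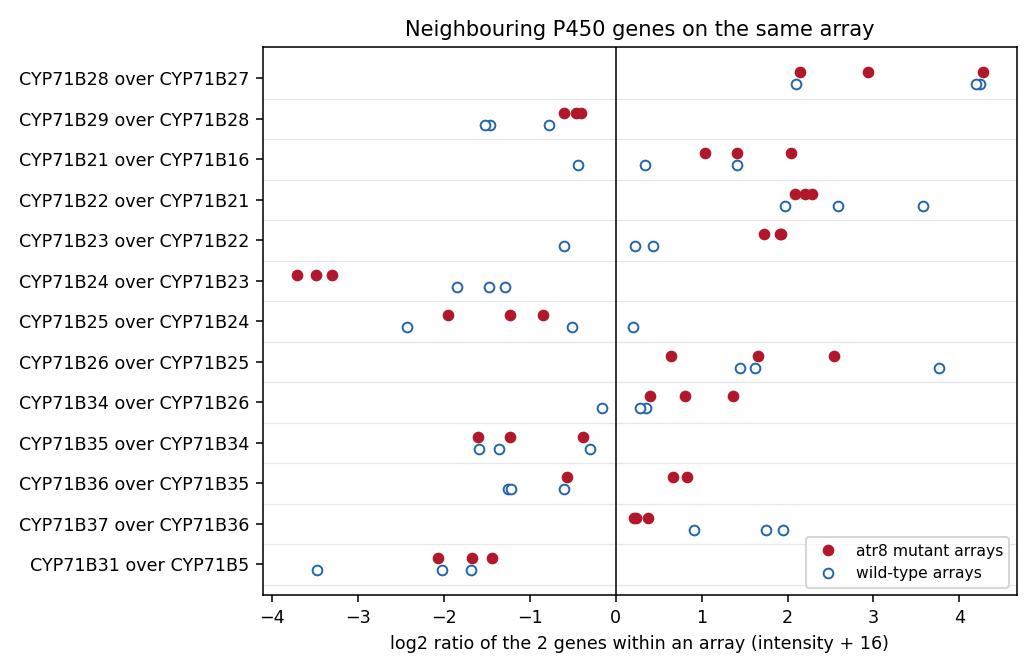
Log2 ratio of neighbouring P450 genes within each array, from intensity + 16, with atr8 mutant arrays in filled red above wild-type arrays in open blue. Only the shift between the genotypes can be read, since a ratio of different probe sets has no meaning of its own; the shift is widest for the pairs that hold CYP71B23 (1.83 and −1.96).

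The mutant arrays were also set against the wild-type mean one by one. CYP71B23, CYP71B6, CYP71B36, CYP71B29 and CYP71B21 lay above that mean on all 3 mutant arrays. On mutant replicate 1 their log2 differences were 1.77, 1.14, 0.80, 0.79 and 0.69, on mutant replicate 2 they were 2.15, 1.76, 1.43, 1.16 and 0.68, and on mutant replicate 3 they were 2.47, 1.36, 1.12, 0.79 and 1.08. For CYP71B26 the 3 arrays stood at −1.18, −0.36 and −1.25, and for CYP71B5 at −0.31, −0.50 and −0.77. Over all members 11, 14 and 11 lay above the wild-type mean on mutant replicates 1, 2 and 3, with medians of −0.02, 0.26 and 0.06. These 7 genes are the ones whose genotypes did not overlap, so the side of the wild-type mean on which replicate 1 lies was fixed by that choice. Of the 3 mutant arrays, replicate 1 had the difference smallest in size in CYP71B23, CYP71B6, CYP71B36 and CYP71B5. In CYP71B29 it was level with replicate 3 (0.79 on each), and in CYP71B21 and CYP71B26 replicate 2 had the smallest (0.68 and −0.36). The part of the raised 3′ over 5′ ratios of replicates 2 and 3 in these sizes was not tested.

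**Figure D5:**
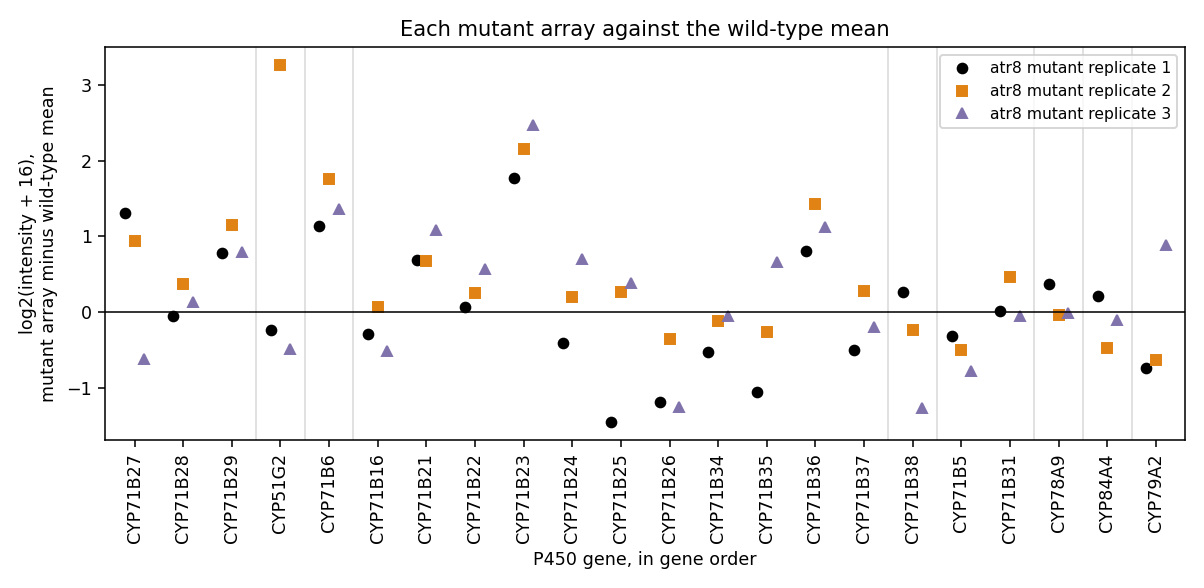
Difference of each mutant array from the wild-type mean in log2(intensity + 16), for the 22 P450 genes in gene order, with black circles for replicate 1, orange squares for replicate 2 and purple triangles for replicate 3. All 3 arrays lie above 0 for CYP71B23, CYP71B6, CYP71B36, CYP71B29, CYP71B21 and CYP71B22, while CYP51G2 is high on replicate 2 only.

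The dimmer members tended to have wider errors. The 8 members among the dimmest 30% of probe sets (a mean under 70.2) were also the 8 with at least 1 array under 16. Standard errors of the log2 difference were 0.38 to 1.03 in these 8 and 0.20 to 0.51 in the other 14, so the ranges overlapped. No detection call stood beside the values, so whether a dim gene was expressed was not analysed here.

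Probe sets just outside the symbol rule were also read. The probe set shared by CYP71B20 and CYP71B19, which lie in the long run on chromosome 3, read 1089, 871 and 1045 in the mutant, against 776, 937 and 953 in the wild type. It cannot separate these genes from each other, and its genotypes overlapped at a log2 difference of 0.17 ± 0.20. The pseudogene CYP71B30P stood at 0.49 ± 0.68 and CYP718 at −0.24 ± 0.28. For the probe set shared by CYP79C2 and AT1G58265 the estimate was −0.08 ± 0.85.

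Other genes of the pathways that P450 enzymes serve were scarcely measured. Of 170 genes in 9 lists, 8 had both a written symbol that matched their locus and a probe set naming them alone. These count as measured, and 0 of the 8 passed the threshold, which 0.919% of all probe sets passed. With so few measured, this count says nothing of the pathways. None was measured of the reductase and cytochrome b5 partners (9 listed), of the partners in camalexin and indole synthesis (17), in abscisic acid (12), in brassinosteroid and gibberellin (19) or in cutin and suberin metabolism (19), or of the P450 genes known under another symbol (34). Of 22 glucosinolate partners 3 were measured, with a median log2 difference of −0.22. UGT74B1, the glucosyltransferase that follows the P450 steps, stood at 0.48 ± 0.22 and GSTU20, a glutathione transferase of the aliphatic branch, at −0.22 ± 0.19. Every mutant array lay above the wild type in UGT74B1 (11.2% of all probe sets) and below it in GSTU20 (11% of all probe sets).

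Among 23 phenylpropanoid partners 4 were measured, with a median of 0.31. CCR2, a cinnamoyl-CoA reductase, read 400, 244 and 128 in the mutant, against 109, 53.7 and 141 in the wild type (log2 difference 1.17 ± 0.49), and its arrays overlapped. DFR, of anthocyanin synthesis, stood at −0.53 ± 0.26, and its arrays overlapped too. In HCT (0.37 ± 0.22) every mutant array lay above the wild type, against 11.2% of all probe sets. JMT, a jasmonate methyltransferase and the only measured gene of 15 jasmonate partners, stood at −0.64 ± 0.75, and its arrays overlapped. Over all tested probe sets the median was −0.01.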

How the data were processed

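Biotin-labelled cRNA was hybridized to Affymetrix arrays, per the labels' protocols. The authors deposited a linear intensity for every probe set on each array. The 6 columns hold identical sorted values (lowest 1, median 192.9, highest 47944), which is the outcome of quantile normalization. For summarization and background correction the method is not given in the sources used here. Precision is limited by the number of arrays.

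After 64 control probe sets of 22810 were left out, 22746 were tested. The limma package (version 3.58.1, under R 4.3.3) was run on log2(intensity + 16) with a moderated linear model of genotype alone, and p-values were adjusted by Benjamini-Hochberg over everything tested. The fit was tested on simulated data with known changes. There the spreads were shuffled among probe sets and no array differed in quality, so it does not cover these features of the real arrays. The platform annotation gave symbols, and the RefSeq table of TAIR10.1 gave loci, gene class and gene order, which all 22 members matched. A run holds members with at most 10 protein-coding genes between them. Pathway and marker genes were taken by locus where the written symbol matched that table, which left out 6 of them, whether or not they had a probe set.

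Members, lists and tests were chosen with earlier results of these data known. The naming rule took members past the threshold, up to 12 non-overlapping rises and 12 falls of at least 1 on the log2 scale, the leading and the brightest member of each role and the extremes of each family of 5 or more. It took from each list every gene past the threshold, at most 6, or the 2 with the smallest p. HCT was named besides, since its genotypes did not overlap. The remaining members are named so that each is accounted for. The ratios of neighbouring genes were added after the values had been seen. Alternatives were a replicate block, median centring, cyclic loess, leaving out the dimmest 30%, a trend with a robust prior, 1 or 64 added, each array left out, and mutant replicate 1 alone. No sequences were used here.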

Additional observations from a re-analysis of the deposited data

Results flagged for a closer look

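The control probe sets, which were left out of the comparison of genotypes, read far from the wild type on mutant replicates 2 and 3. The 3′ over 5′ ratio of actin was 28.9 and 19.6 on these arrays, where the highest wild-type array had 2.66. For GAPDH the ratio was 1.75 and 1.70, where the highest wild-type array had 0.844. Groups of 3 arrays were not screened for outlying values.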

How the results depend on the processing

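The count of P450 genes past the threshold was 0 in 10 of the 14 alternatives. It was 1 with cyclic loess and 2 without the dimmest 30% of probe sets, with a trend and robust prior and with 64 added. The count over all probe sets, 209, became 371, 1459 and 336 under these last 3, 99 with 1 added, 0 with mutant replicate 1 alone (2194 at an unadjusted p under 0.05), and without 1 array it lay between 0 and 314. It was 314 without mutant replicate 1 and 0 by limma without any other array, where 2443 to 2594 had an unadjusted p under 0.05. With 1 mutant array left, that array is assumed to vary like the wild type. A replicate block gave 0 calls in all and 0 among the P450 genes, and 2769 probe sets then had an unadjusted p under 0.05. Same-numbered arrays deviated with correlations of 0.014, 0.012 and 0.0045, all under the 0.1 set for pairing, and the main fit used no pairing. For arrays of different number the correlations were lower, −0.011 to 0.00086. Whether same-numbered arrays share more than a number cannot be told from these values. In 24 of 300 single-gene values the sign turned. With mutant replicate 1 alone the median of the members was −0.024, CYP71B28 stood at −0.059, CYP51G2 at −0.24, CYP71B24 at −0.41, CYP71B38 at 0.26 and CYP84A4 at 0.22. Without 1 array the ranges were −0.36 to 1.51 for CYP51G2, −0.59 to 0.32 for CYP71B16, −0.10 to 0.45 for CYP71B24, −0.88 to 0.33 for CYP71B25, −0.66 to 0.20 for CYP71B35, −0.35 to 0.037 for CYP71B37, −0.76 to 0.0092 for CYP71B38, −0.39 to 0.41 for CYP71B31, −0.13 to 0.35 for CYP78A9, −0.34 to 0.055 for CYP84A4 and −0.69 to 0.47 for CYP79A2. The other 10 members kept their sign under all alternatives that tested them, and 8 members were not tested without the dimmest 30%. For these changes the cause was not tested, beyond the smaller number of probe sets or arrays where some are left out.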
